A study of Mus musculus with 4 samples.

Results

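The comparison described here sets a culture of palatal mesenchymal cells that received 5Z-7-oxozeaenol and then TGF-beta2 against a culture that received TGF-beta2 alone. Oxozeaenol is named in the labels as an inhibitor of the Tak1 kinase. Compared were all genes that had a probe set of their own on the 2 arrays and whose mean log2 signal over the series' 4 arrays reached the median of all probe sets, which gave 11744 of 18193 genes. Palatal mesenchymal cells are the connective tissue cells of the secondary palate, the shelf of tissue that comes to separate mouth and nose. Every culture was wild-type and derived from outbred mice, taken as embryos at day 14 of gestation (E14.0). The TGF-beta2 culture received the growth factor for 120 minutes. The oxozeaenol culture received the inhibitor for 60 minutes and TGF-beta2 for 120 minutes. The other two cultures, given beside the comparison as reference levels, were left untreated or received SB431542, an inhibitor of the TGF-beta type I receptor kinase, for 60 minutes and TGF-beta2 for 120 minutes. The labels give no inhibitor dose, no vehicle and no number of embryos behind a culture, and no culture received oxozeaenol without TGF-beta2. There was 1 array per culture, which leaves the spread between cultures unknown, so no difference was tested and every count below rests on size alone.

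Tak1, encoded by Map3k7, is a kinase that relays signals from receptors for TGF-beta, BMPs, interleukin 1, tumour necrosis factor and Toll-like ligands. It works in a complex with Tab proteins and phosphorylates the MAP kinase kinases upstream of p38 and JNK and the IKK complex upstream of NF-kappaB. TGF-beta receptors also signal through Smad proteins, which the type I receptor phosphorylates directly. Oxozeaenol is a resorcylic acid lactone that binds Tak1 covalently, and it is known to bind other kinases that carry an equivalent cysteine, including kinases of the ERK pathway.

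The deposited signals were already scaled, with a trimmed mean of 500.0 on each array. Of 42 control probe sets bright enough to be read, 0 differed 2-fold between the 2 arrays, and the differences ran from -0.55 to 0.30 on the log2 scale. The 10 housekeeping genes ran from -0.47 to 0.15. All 10 markers of mesenchyme, among them Vim, Col1a1 and Twist1, were above the filter level of 66.1 on every array. Markers of macrophages and blood cells were also above it on every array, 16 of 17 of them, and Lyz2, a lysozyme of macrophages, read 15113 in untreated cells, 15372 with TGF-beta2 alone, 17000 with SB431542 and 15392 with oxozeaenol. On the oxozeaenol array 4 of 12 endothelial, 3 of 12 skeletal muscle and 5 of 8 neural and Schwann cell markers reached that level. Of those that passed the filter, 3, 4 and 4 genes, Des, desmin, was the 1 past 2-fold, with a difference of -1.51. Under the filter, Sox10, a neural crest and Schwann cell factor, had signals of 95.7, 20.7, 51.4 and 92.6 in untreated cells, with TGF-beta2 alone, with SB431542 and with oxozeaenol. Most epithelial markers were dimmer on the other 3 arrays than on the oxozeaenol array and are described last.

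The genes that stood lower with oxozeaenol included early transcription factors, phosphatases and cytokines and came from the whole range of brightness, and those that stood higher included keratins and were mostly dim. By the size rule, 255 genes (2.17%) lay 2-fold or more below their signal with TGF-beta2 alone, and 214 genes (1.82%) lay 2-fold or more above it. At 4-fold the counts were 55 lower (0.468%) and 39 higher (0.332%), and at 8-fold 22 lower and 15 higher. Which side held more genes depended on the filter, since with no filter 588 were higher and 511 lower. For scale, with TGF-beta2 alone there were 79 genes at least 2-fold above untreated cells (0.673%) and 43 below (0.366%). The median signal of the lower genes was 938 on the TGF-beta2 array and 263 on the oxozeaenol array. For the higher genes the medians were 134 and 473. Among the 2936 brightest genes 53 were lower and 10 higher, and among the 2936 dimmest 73 were lower and 107 higher. Folds are taken on log2(signal + 21.7) and so understate the difference of a dim gene.

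**Figure D1:**
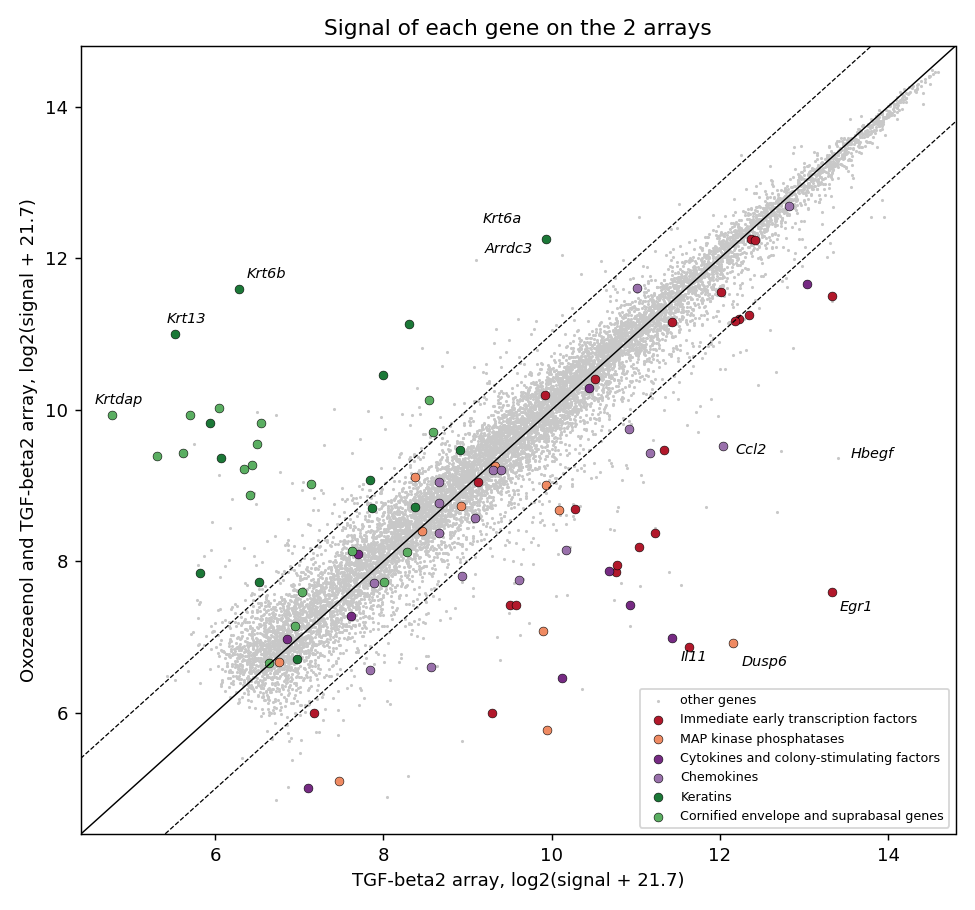
Each point is a gene, at its log2(signal + 21.7) on the TGF-beta2 array (x axis) and on the array of oxozeaenol and TGF-beta2 (y axis), 1 array each, with 6 gene lists in colour; the solid line marks equal signal and the dashed lines a 2-fold difference. Part of the transcription factors, phosphatases, cytokines and chemokines lies below the lower dashed line, with Egr1 and Dusp6 farthest from the solid line. Most keratins and cornified envelope genes lie above the upper dashed line, with Krt13 and Krt6b farthest.

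Where a gene had several readable probe sets, the others repeated the reading on the same RNA. Among the lower genes, 107 had other probe sets, 156 in all, of which 143 were on the lower side and 71 (45.5%) were themselves at least 2-fold lower. For the higher genes the corresponding numbers were 61 genes, 90 probe sets, 86 on the higher side and 44 (48.9%) past 2-fold. In genes that were within 2-fold, 98 of 8074 other probe sets (1.21%) were past 2-fold on the higher side and 49 on the lower. For these genes the side of the chosen probe set was not taken into account. The genes at the edge of the rule were Klf6, Trmt61a and Ifi204 just inside it on the lower side and Ccdc92, Lrrk1 and Prorp just outside, and Fzd7, Tbc1d4 and AI606473 just inside on the higher side and Adck2, Arhgap28 and Rb1cc1 just outside.

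The measured genes of Tak1's own pathway were within 2-fold. Of 19 members of the Tak1 complex, the MAP kinase cascades and the IKK complex, 0 were higher or lower by 2-fold. Their differences ran from -0.74 to 0.64 with a median of 0.00. Of all genes 1.82% were higher and 2.17% lower, so 0 in a list this short is near the share of all genes. The same holds for the other lists below with 0 past the rule. Every count below is to be read beside these shares. In a list this short, a single gene or a few past the rule are no result about the list. Map3k7 itself read 479.7 in untreated cells, 551 with TGF-beta2 alone, 539 with SB431542 and 575 with oxozeaenol. Map2k1, which encodes the ERK kinase Mek1, read 5551 in untreated cells, 5353 with TGF-beta2 alone, 4609 with SB431542 and 4380 with oxozeaenol, and Map2k3, a kinase of p38, read 4988 in untreated cells, 5803 with TGF-beta2 alone, 4749 with SB431542 and 3461 with oxozeaenol. These levels of mRNA say nothing about the activity of the kinases. Tgfbr1, the type I receptor that SB431542 blocks, read 3561 in untreated cells, 4881 with TGF-beta2 alone, 3147 with SB431542 and 2893 with oxozeaenol, a difference of -0.75.

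Transcription factors of the immediate early class, which serum, growth factors and stress switch on within minutes through MAP kinases, were mostly lower. Of 23 measured, 16 were lower by the 2-fold rule and 0 higher, against 2.17% of all genes lower, and their median difference was -1.60 where that of all genes was 0.05. The zinc finger factors of the Egr family stood farthest apart. Egr1 read 4389 in untreated cells, 10257 with TGF-beta2 alone, 5195 with SB431542 and 171 with oxozeaenol, 53.2-fold below the TGF-beta2 array and the lowest of 4. Egr2 read 461 in untreated cells, 3154 with TGF-beta2 alone, 236 with SB431542 and 95.2 with oxozeaenol, a 27.2-fold difference. Egr3 read 354 in untreated cells, 605 with TGF-beta2 alone, 281 with SB431542 and 42.2 with oxozeaenol. For Egr1 and Egr2 the array of SB431542 and TGF-beta2 was near or below the untreated one, whereas the oxozeaenol array was far below it.

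The AP-1 factors, which bind DNA as dimers of Fos and Jun proteins, differed by member. Fos read 1644 in untreated cells, 2089 with TGF-beta2 alone, 1392 with SB431542 and 269 with oxozeaenol, 7.25-fold lower. Fosl1, which encodes Fra-1, read 1519 in untreated cells, 1722 with TGF-beta2 alone, 1372 with SB431542 and 212 with oxozeaenol, 7.47-fold lower. Junb differed by -1.60 and Jun by -1.10, while Fosb, a dim gene here, differed by -1.17. Myc, the growth regulator, read 1676 in untreated cells, 2376 with TGF-beta2 alone, 1736 with SB431542 and 309 with oxozeaenol. Maff, a small Maf protein, differed by -2.82. Of the 23 genes, 10 were at least 2-fold lower on the oxozeaenol array than on each of the other 3 arrays, against 98 of all 11744 genes (0.834%). Nr4a1, an orphan nuclear receptor, differed by -2.08, Klf2 by -2.15, Ier2 by -1.87, Ier3 by -1.83 and Klf4 by -1.04, and Klf6 stood at the edge of the rule. The members within 2-fold included Srf, the serum response factor that binds CArG boxes, with signals of 1209, 1440, 943 and 1334 in the order untreated, TGF-beta2, SB431542 and oxozeaenol, an order kept wherever 4 signals stand without labels.

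Some negative feedback genes of the ERK pathway, which ERK signalling itself induces, were lower, and others were within 2-fold. Of 11 MAP kinase phosphatase genes, 5 were lower and 0 higher, with a median of -0.92. Dusp6, whose product removes phosphate from ERK in the cytoplasm, read 3658 in untreated cells, 4547 with TGF-beta2 alone, 3451 with SB431542 and 99.3 with oxozeaenol, a 37.8-fold difference. Dusp4, a nuclear phosphatase of ERK, p38 and JNK, read 470.3 in untreated cells, 964 with TGF-beta2 alone, 250.0 with SB431542 and 32.9 with oxozeaenol. Dusp5, a nuclear phosphatase of ERK, read 296 in untreated cells, 927 with TGF-beta2 alone, 333 with SB431542 and 113 with oxozeaenol. The other two were Dusp2, which differed by -2.38, and Dusp1, which differed by -1.41, and all 5 were at least 2-fold below each of the other 3 arrays. Of the 6 within 2-fold, Dusp10 differed by -0.07 and Dusp14 by 0.73. With TGF-beta2 alone Dusp5 was well above untreated cells and Dusp6 only slightly, and both lay below the untreated level with oxozeaenol.

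Among 13 Sprouty, Spred and other feedback genes, 5 were lower and 0 higher. Phlda1, a pleckstrin homology protein, read 4207 in untreated cells, 6534 with TGF-beta2 alone, 3616 with SB431542 and 379 with oxozeaenol. Errfi1, which encodes Mig6, an inhibitor of the EGF receptor, read 3830 in untreated cells, 6764 with TGF-beta2 alone, 3002 with SB431542 and 683 with oxozeaenol. Spred2, an inhibitor of Ras and Raf signalling, read 2206 in untreated cells, 2373 with TGF-beta2 alone, 1988 with SB431542 and 327 with oxozeaenol. Spred1 differed by -1.77 and Rasa2, a Ras GTPase activating protein, by -1.01. Spry2 was just short of the rule at -0.99. The ETS factors Etv4 and Etv5, transcription factors downstream of FGF and ERK signalling, differed by -1.42 and -1.25, the 2 lower genes of 8 measured. Etv5 read 742, 1189, 1725 and 488, so that it was highest in the SB431542 culture.

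**Figure D2:**
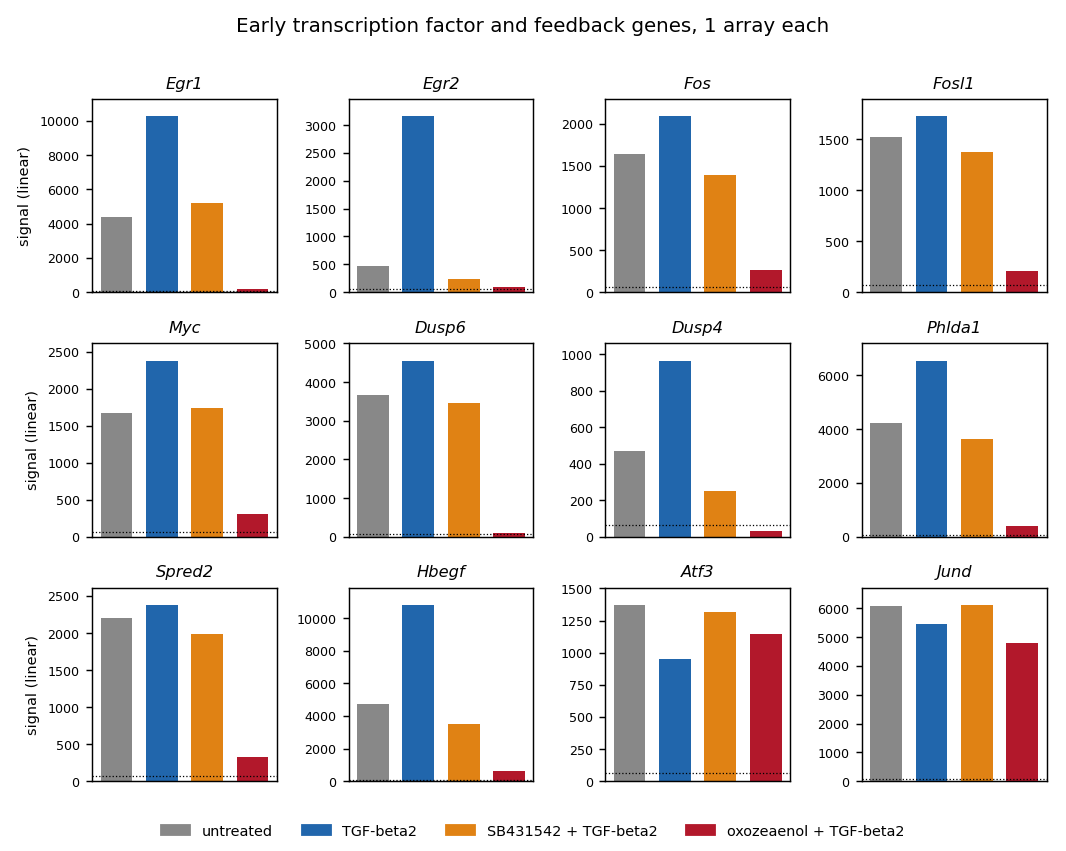
Signal on a linear scale (y axis, a separate scale for each gene, starting at 0) of 12 early transcription factor and feedback genes on the 4 arrays, 1 bar per array, with a dotted line at the filter level of 66.1. The oxozeaenol bar is the lowest of 4 for Egr1, Egr2, Fos, Fosl1, Myc, Dusp6, Dusp4, Phlda1, Spred2 and Hbegf, while Jund, a member within 2-fold, shows like bars and Atf3 has its lowest bar with TGF-beta2 alone.

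The promoters of Egr2 and Dusp5 are shown because both genes were far lower and both hold CArG boxes, the sites of serum response factor, close to the start. The sequences are those of RefSeq on GRCm38.p6, 250 bases ending just before the transcription start, 5′ to 3′ on the gene's strand. Capitals mark matches, on either strand, to the CArG box, the AP-1 site TGACTCA, the cyclic AMP response element TGACGTCA or the NF-kappaB site (GGG, any 2 bases, then TTTCC). In Egr2 (chr10:67537316-67537565, plus strand) the CArG box begins 72 bases before the start. In Dusp5 (chr19:53528895-53529144, plus strand) CArG boxes begin 82 and 72 bases before the start, and an NF-kappaB match that begins 90 bases before it overlaps the CArG box at 82.
Egr2: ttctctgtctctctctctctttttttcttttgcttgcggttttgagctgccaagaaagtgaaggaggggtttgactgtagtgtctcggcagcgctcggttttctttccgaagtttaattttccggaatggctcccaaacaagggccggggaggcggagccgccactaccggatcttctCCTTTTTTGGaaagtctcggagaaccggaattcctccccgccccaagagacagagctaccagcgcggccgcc
Dusp5: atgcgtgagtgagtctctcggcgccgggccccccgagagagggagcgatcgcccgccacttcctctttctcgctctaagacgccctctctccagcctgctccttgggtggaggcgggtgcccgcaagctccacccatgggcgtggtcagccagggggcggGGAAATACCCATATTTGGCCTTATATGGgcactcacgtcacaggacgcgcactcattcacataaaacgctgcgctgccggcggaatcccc

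In windows from 250 bases before to 50 after the start, RefSeq's table held promoters of 186 of the 255 lower genes and of 9522 of the 11744 measured genes. A CArG box was found in 6 of the 186 (3.23%), against 1.56% of the measured genes, in 6 of 165 higher genes (3.64%) and in 1.63% of all windows in the table. A cyclic AMP response element was found in 19 (10.2%) against 3.55%, in 4.24% of the higher genes and in 1.79% of all windows, and an AP-1 site in 20 (10.8%) against 4.78%, in 7.88% of the higher genes and in 5.20% of all windows. The ETS site CCGGAAG was found in 12 (6.45%) against 19.9%, in 4.24% of the higher genes and in 8.86% of all windows. A match is a run of letters and not a shown binding site, and letters outside these windows were not searched.

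Growth factors that signal through the EGF receptor included 2 of the lower genes. Hbegf, heparin-binding EGF-like growth factor, read 4733 in untreated cells, 10779 with TGF-beta2 alone, 3488 with SB431542 and 639.5 with oxozeaenol, a 16.3-fold difference that put the oxozeaenol culture below untreated cells. Ereg, epiregulin, read 2042 in untreated cells, 2676 with TGF-beta2 alone, 1867 with SB431542 and 210.1 with oxozeaenol. The other 6 of 8 measured genes were within 2-fold, among them Egfr, the receptor, with 707, 819, 712 and 611. Regulators of G protein signalling, which end the signal of G protein-coupled receptors, had 2 of 11 lower, against 2.17% of all genes. Rgs1, known mostly from leukocytes, read 800.2 in untreated cells, 1293 with TGF-beta2 alone, 518 with SB431542 and 57.9 with oxozeaenol. Rgs16 read 2038 in untreated cells, 1693 with TGF-beta2 alone, 1584 with SB431542 and 157 with oxozeaenol.

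Cytokines and chemokines formed the next group. Of 10 measured cytokine and colony-stimulating factor genes, 6 were lower and 0 higher, with a median of -1.74. The interleukin 6 family supplied most. Il11 read 663 in untreated cells, 2736 with TGF-beta2 alone, 265 with SB431542 and 105 with oxozeaenol, 21.7-fold lower. Il6 read 331 in untreated cells, 1095 with TGF-beta2 alone, 210.3 with SB431542 and 66.3 with oxozeaenol, 12.7-fold lower. Lif, leukemia inhibitory factor, read 404 in untreated cells, 1931 with TGF-beta2 alone, 179 with SB431542 and 150.2 with oxozeaenol, 11.4-fold lower. Clcf1, another cytokine of this family, differed by -2.80. These 4 were higher with TGF-beta2 than in untreated cells and lower with either inhibitor, and with oxozeaenol each was below the untreated level. Osm and Ctf1, also of this family, were within 2-fold, with differences of -0.33 and 0.41. Csf1, the growth factor of macrophages, had signals of 8316, 8403, 8322 and 3206, but its dimmest probe sets differed by -0.16. Tnf, tumour necrosis factor, was dim, with signals of 109.6, 116, 137 and 10.5. The list had 16 members on the array. The 6 under the filter included Il33, an alarmin, with signals of 6.40, 36.0, 37.5 and 109, which were highest with oxozeaenol.

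Of 17 measured chemokines, 8 were lower and 0 higher, with a median of -0.52. Ccl2, Ccl7 and Ccl12, which attract monocytes, read far below every other array, while Ccl8 and Ccl9 differed by -0.09 and -0.13. Ccl2 read 5185 in untreated cells, 4180 with TGF-beta2 alone, 5362 with SB431542 and 714 with oxozeaenol, 5.71-fold lower. Ccl7 read 1531 in untreated cells, 1128 with TGF-beta2 alone, 1683 with SB431542 and 263 with oxozeaenol. Ccl12 read 2845 in untreated cells, 2278 with TGF-beta2 alone, 2292 with SB431542 and 665 with oxozeaenol. Unlike Il6, Il11, Lif and Clcf1, these 3 were no higher with TGF-beta2 than without it. Cxcl3, which attracts neutrophils, had signals of 675, 356, 489 and 75.4. Its relative Cxcl2 differed by -1.28. Cx3cl1, fractalkine, differed by -1.17, but another of its probe sets differed by 0.049. Ccl3 and Ccl4, made mainly by macrophages, were lower with oxozeaenol and higher with SB431542, each relative to the same TGF-beta2 array. Ccl3 read 2646 in untreated cells, 466 with TGF-beta2 alone, 1838 with SB431542 and 201 with oxozeaenol. Ccl4 read 1597 in untreated cells, 760.3 with TGF-beta2 alone, 1801 with SB431542 and 194 with oxozeaenol.

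Since macrophage transcripts were present in every culture, the marker levels belong beside these values. None of the 16 measured macrophage and blood cell markers was 2-fold lower, their differences ran from -0.73 to 0.00, and 15 of 16 lay below 0. Their summed signal was 98116 in untreated cells, 93105 with TGF-beta2, 93836 with SB431542 and 80678 with oxozeaenol. Csf1r, the receptor of Csf1, read 8693 in untreated cells, 8651 with TGF-beta2 alone, 8224 with SB431542 and 7343 with oxozeaenol. C1qa, a complement component made by macrophages, read 10623 in untreated cells, 10199 with TGF-beta2 alone, 10373 with SB431542 and 8608 with oxozeaenol. The part of macrophages in the chemokine, Csf1, Tnf and Rgs1 values was not tested. In RNA from a whole culture, fewer cells of a type and less RNA per cell cannot be told apart.

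NF-kappaB's subunits and feedback inhibitors were lower in part. Of 16 measured, 5 were lower and 0 higher, with a median of -0.57. Tnfaip3, which encodes A20, a brake on NF-kappaB, read 611 in untreated cells, 726 with TGF-beta2 alone, 592 with SB431542 and 188 with oxozeaenol. Nfkbie, an inhibitor of NF-kappaB, had signals of 289, 343, 341 and 86.4. Nfkbiz, a nuclear co-regulator, differed by -1.49, Zc3h12a, an RNase that degrades cytokine mRNA, by -1.60 and Bcl3 by -1.15. Nfkbia, the classic feedback inhibitor, was within 2-fold, with signals of 7999, 9394, 8679 and 8618. Nfkbib, another inhibitor, differed by -0.08.

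The promoters of Il6, Cxcl2 and Cxcl3 are shown because their NF-kappaB sites lie near the start in genes that were lower. They are RefSeq sequences on GRCm38.p6 as above. In Il6 (chr5:30012864-30013113, plus strand) an AP-1 site begins 249 bases and an NF-kappaB site 44 bases before the start. In Cxcl2 (chr5:90903649-90903898, plus strand) NF-kappaB sites begin 97 and 78 bases before it, and in Cxcl3 (chr5:90785851-90786100, plus strand) 73 bases before it.
Il6: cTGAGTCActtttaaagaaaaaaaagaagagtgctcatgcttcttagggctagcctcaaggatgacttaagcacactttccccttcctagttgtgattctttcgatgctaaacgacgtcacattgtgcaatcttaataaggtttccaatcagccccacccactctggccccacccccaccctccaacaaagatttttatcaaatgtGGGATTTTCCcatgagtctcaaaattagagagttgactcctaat
Cxcl2: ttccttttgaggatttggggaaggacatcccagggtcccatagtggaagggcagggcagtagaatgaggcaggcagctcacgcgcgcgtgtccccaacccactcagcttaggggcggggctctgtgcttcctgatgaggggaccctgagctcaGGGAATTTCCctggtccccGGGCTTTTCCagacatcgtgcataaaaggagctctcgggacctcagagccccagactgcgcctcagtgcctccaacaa
Cxcl3: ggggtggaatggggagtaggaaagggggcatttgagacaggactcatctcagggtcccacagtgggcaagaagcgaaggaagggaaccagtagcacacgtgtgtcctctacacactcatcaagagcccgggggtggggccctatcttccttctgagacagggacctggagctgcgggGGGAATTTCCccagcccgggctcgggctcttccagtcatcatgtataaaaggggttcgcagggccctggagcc
The NF-kappaB letters were found in 10 of 186 lower genes with a promoter in the table (5.38%), against 2.07% of measured genes, 3.03% of the higher genes and 1.63% of all windows.

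Of the Socs and Stat genes, 3 of 16 were lower, against 2.17% of all genes. Socs3, a feedback inhibitor of interleukin 6 family signalling, read 1447 in untreated cells, 2147 with TGF-beta2 alone, 1331 with SB431542 and 505 with oxozeaenol. Another Socs3 probe set had signals of 1564, 1035, 1523 and 513, a difference of -0.98 and no rise with TGF-beta2. Socs5 differed by -1.33 and Osmr, the oncostatin M receptor, by -1.18. Interferon-stimulated genes gave 0 higher and 0 lower of 17, with a median of -0.12. Of 9 prostaglandin genes 1 was lower and 2 were higher. Ptgs2, the inducible cyclooxygenase, read 9842 in untreated cells, 15586 with TGF-beta2 alone, 6571 with SB431542 and 6956 with oxozeaenol, with like signals for the 2 inhibitors. Hpgd, which degrades prostaglandins, was higher and dim, with signals of 119, 59.1, 125 and 267. Ptgfr, a prostaglandin receptor, differed by 1.46 and was dim too, with signals of 71.9, 33.7, 78.6 and 131. Hpgd and Ptgfr were under the filter level with TGF-beta2 alone. Without the oxozeaenol array the mean of Ptgfr would have been under that level. Its place among the higher genes is therefore no measure of support. Of 10 genes of mRNA decay, 3 were lower, Noct by a difference of -1.92, Zc3h12a, and Btg2, an antiproliferative gene, by a difference of -1.19. Of 14 histone and chromatin regulators, the elongation factor gene Ell2 was the lower 1, with a difference of -1.44.

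**Figure D3:**
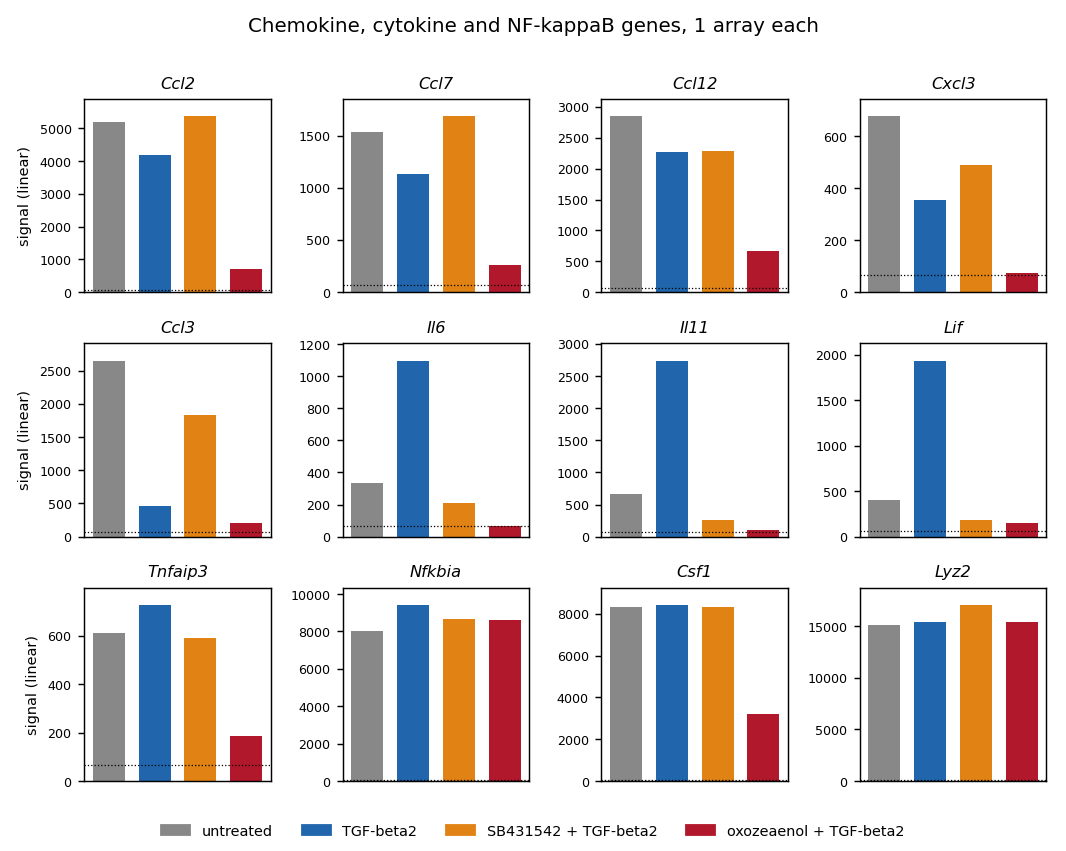
Signal on a linear scale (y axis, a separate scale for each gene, starting at 0) of 12 chemokine, cytokine, NF-kappaB and macrophage genes on the 4 arrays, 1 bar per array, with a dotted line at the filter level of 66.1. Il6, Il11 and Lif are highest on the TGF-beta2 array, Ccl2, Ccl7 and Ccl12 are lowest on the oxozeaenol array, and Nfkbia and Lyz2 show like bars.

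Targets of TGF-beta and Smad signalling were lower in part. Of 22 measured, 8 were lower and 0 higher, with a median of -0.36. Sphk1, sphingosine kinase, read 789.9 in untreated cells, 1928 with TGF-beta2 alone, 414 with SB431542 and 119.6 with oxozeaenol. Bhlhe40, a transcriptional repressor, read 2427 in untreated cells, 6495 with TGF-beta2 alone, 1931 with SB431542 and 1421 with oxozeaenol. Hmga2, an architectural chromatin protein, read 5197 in untreated cells, 5597 with TGF-beta2 alone, 5679 with SB431542 and 1263 with oxozeaenol, low on the oxozeaenol array alone. Feedback inhibitors of the Smad pathway were lower by less. Smad7 read 1810 in untreated cells, 2317 with TGF-beta2 alone, 1220 with SB431542 and 1120 with oxozeaenol. Another Smad7 probe set had signals of 914, 600, 305 and 424, a difference of -0.48. Pmepa1 had signals of 7599, 10413, 4746 and 4329. Ldlrad4 had signals of 277, 347, 119 and 137. For these 3 the SB431542 signal was close to the oxozeaenol signal in the brightest probe set. Ccn2, connective tissue growth factor, was within 2-fold, with signals of 19090, 21733, 21453 and 16731. Snai2, a repressor of E-cadherin, was within it too, with signals of 6599, 3238, 9145 and 2553, lower on both arrays of this comparison than on the other two.

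BMP-Smad targets split, with 3 higher and 1 lower of 10. Id1, an inhibitor of helix-loop-helix factors, was lower and had signals of 4944, 2905, 5542 and 1295. Its relative Id4 was higher, with signals of 1848, 697, 2859 and 1909. Smad6, the inhibitory Smad of BMP signalling, had signals of 2321, 1818, 2530 and 4022, and Hey1 differed by 1.27. Id4 and Hey1 were near their untreated signal, and Smad6 was above it. Of 10 BMP ligands and antagonists, Bmp4 was the 1 past the rule, with signals of 239, 109, 317 and 470.0.

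Matrix genes were mostly within 2-fold. Of 25 collagens and matrix glycoproteins, 0 were higher or lower, against 1.82% and 2.17% of all genes. The differences ran from -0.39 to 0.46. Col1a2, a chain of type I collagen, read 17662 in untreated cells, 19644 with TGF-beta2 alone, 20569 with SB431542 and 18742 with oxozeaenol. Has2, the main hyaluronan synthase of palatal mesenchyme, read 1606 in untreated cells, 3631 with TGF-beta2 alone, 503 with SB431542 and 400.1 with oxozeaenol, an 8.66-fold difference, and was the 1 of 7 hyaluronan genes past the rule. Of 8 genes of plasminogen activation 2 were lower. Plaur, the urokinase receptor, had signals of 2978, 3770, 2555 and 1105. Plau, urokinase, differed by -1.64, but another of its probe sets differed by -0.09. Of 13 integrin genes 2 were lower, Itgb3 with signals of 381, 844, 372 and 285 and Itga5 with a difference of -1.01. Of 18 matrix proteases and inhibitors 2 were higher. Adamts5, which cleaves aggrecan, had signals of 419.6, 316, 626 and 1223, and Adamts1, which cleaves versican, differed by 1.04. Of 21 targets of YAP, TEAD and SRF, 3 were lower, and the median was 0.03. Ccn1, a matricellular protein, had signals of 11101, 15861, 11661 and 5970, the tissue factor gene F3 differed by -1.26 and Ankrd1 by -1.05.

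Regulators of palate mesenchyme gave 3 higher and 0 lower of 23, against 1.82% higher and 2.17% lower of all genes. Osr1, a zinc finger factor of orofacial mesenchyme, read 496 in untreated cells, 176 with TGF-beta2 alone, 953 with SB431542 and 667 with oxozeaenol. Alx1, a homeobox gene of facial mesenchyme, had signals of 337, 131, 317 and 470.4. Shox2, needed for the anterior palate, had signals of 1487, 842, 1718 and 2023. In the brightest probe set all 3 were lower with TGF-beta2 than in untreated cells and higher with either inhibitor. Another Alx1 probe set, with signals of 116, 117, 113 and 199, was higher with oxozeaenol only, by 0.67. Of 8 hedgehog pathway genes 2 were higher. Gas1, a co-receptor, had signals of 4820, 2082, 5887 and 5925, and Gli2, a transcription factor, had signals of 190.3, 229.8, 228 and 578. The FGF genes gave 1 higher and 2 lower of 10. Fgfr2, a receptor whose mutation causes craniosynostosis and cleft palate, read 506 in untreated cells, 412 with TGF-beta2 alone, 593 with SB431542 and 1721 with oxozeaenol and was at least 2-fold above each other array. Fgf7, a mesenchymal ligand of Fgfr2, was lower, with signals of 2776, 2588, 3194 and 1124. Fgf21 differed by -1.98.

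Among Vegf, angiopoietin and PDGF genes 3 of 13 were lower and 1 higher, against 2.17% lower and 1.82% higher of all genes. Vegfa read 2854 in untreated cells, 7433 with TGF-beta2 alone, 2397 with SB431542 and 1783 with oxozeaenol. Pdgfb had signals of 409, 921, 342 and 351, Pdgfa differed by -1.09, and Vegfd, on the higher side, by 1.35. Of 16 Wnt genes 2 were lower, the ligand Wnt11 with a difference of -1.43 and the effector Lef1 with -1.15, and Wif1, a Wnt inhibitor, was the 1 higher, with 1.18. Rspo2, a secreted Wnt agonist, had signals of 201, 83.5, 447 and 954, but another of its probe sets differed by -0.058. Of 11 Notch pathway genes, Hey1 was higher and Jag1, a Notch ligand, lower, with a difference of -1.19 in the brightest probe set and of 0.25 in another.

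Outside the epithelial lists, some genes of growth control and apoptosis were among the higher genes. Arrdc3, an arrestin-like adaptor that turns over receptors, read 643 in untreated cells, 527 with TGF-beta2 alone, 874 with SB431542 and 3993 with oxozeaenol, 7.31-fold above the TGF-beta2 array and the highest of 4. Trp53inp1, a stress gene of the p53 pathway, read 1700 in untreated cells, 1091 with TGF-beta2 alone, 1403 with SB431542 and 4196 with oxozeaenol. Bmf, a BH3-only promoter of apoptosis, read 199.8 in untreated cells, 229 with TGF-beta2 alone, 121 with SB431542 and 939 with oxozeaenol. In these 3 the oxozeaenol array alone stood apart. Irs1, the insulin receptor substrate, read 1073 in untreated cells, 331 with TGF-beta2 alone, 1303 with SB431542 and 1781 with oxozeaenol, so that TGF-beta2 alone gave the lowest signal. It was 1 of 2 higher genes among 19 of insulin and IGF signalling, the other being Sesn1. Of 15 targets of p53, 4 were higher and 2 lower, against 1.82% and 2.17% of all genes. Sesn1, a stress protein that restrains mTORC1, had signals of 1051, 681, 946 and 1718. Fas, a death receptor, differed by 1.38, and Perp, also a gene of epithelial desmosomes, by 1.38. On the lower side Plk2, a polo-like kinase, had signals of 3166, 5042, 3334 and 1750, and Btg2 was the other. Of 13 clock genes 1 was higher and 2 were lower. Dbp, a factor driven by the circadian clock, had signals of 277, 135, 264 and 717. Arntl, which encodes Bmal1, differed by -1.65, although another of its probe sets differed by 0.10, and Bhlhe40 was given above. Runx1t1, a transcriptional co-repressor, had signals of 346, 204, 474 and 991.

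Of 18 genes of the Atf4 and endoplasmic reticulum stress responses, 0 were past the rule, and Ddit3, the factor Chop, came nearest at 0.81. Of 14 heat shock chaperones 1 was higher and 1 lower, against 1.82% and 2.17% of all genes. Hspa1a, an inducible chaperone, differed by 1.31, but its near-identical copy Hspa1b by 0.90, and the arrays may not tell them apart. Bag3, a co-chaperone, differed by -1.12. Of 10 Nrf2 targets 1 was higher, Gsta4, a glutathione transferase, with signals of 334, 352, 526 and 1097. Genes of G2 and mitosis gave 0 of 19, from -0.17 to 0.54, and those of G1 and S phase 1 higher of 19, the inhibitor gene Cdkn1c with a difference of 1.26. Of 19 genes of cholesterol synthesis and uptake, Ch25h, an enzyme that macrophages make on activation, was the lower 1 and read 1309 in untreated cells, 2939 with TGF-beta2 alone, 2379 with SB431542 and 184 with oxozeaenol. Of 15 hypoxia and glycolysis genes 2 were lower, Vegfa and Hk2, hexokinase 2, which had signals of 2222, 3347, 2039 and 984.

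**Figure D4:**
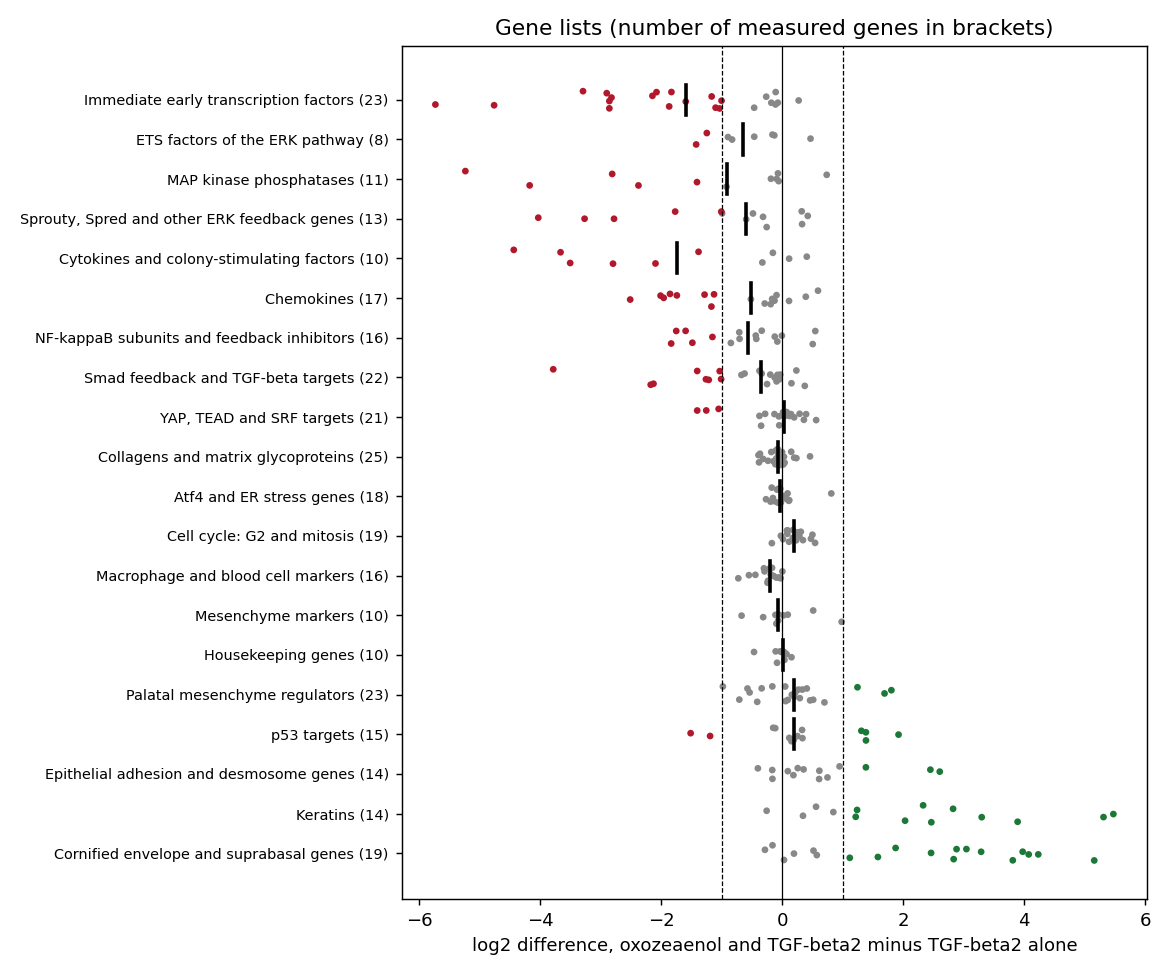
Log2 difference of oxozeaenol and TGF-beta2 minus TGF-beta2 alone (x axis) for each measured gene of 20 lists (y axis, number of genes in brackets), 1 array a side, with green points at least 2-fold higher, red points at least 2-fold lower, grey points within 2-fold and black bars at the medians of all but the 3 epithelial lists. The immediate early list has its median at -1.60 and the cytokines at -1.74, collagens, mesenchyme markers and housekeeping genes lie near 0, and keratins and cornified envelope genes lie mostly to the right, over only those members that passed the filter, some of them through the oxozeaenol array.

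Epithelial genes made up the top of the higher side. Keratins are the intermediate filaments of epithelia, and the cornified envelope is the protein shell of the outer layers of skin and oral epithelium. Of 21 keratins on the array, 19 read highest on the oxozeaenol array, and 12 were at least 2-fold above each of the other 3 arrays. Among those past the filter this was 9 of 14, where 74 of the 11744 measured genes (0.63%) held such a place. Of 30 cornified envelope and suprabasal genes, 24 read highest there and 18 were at least 2-fold above each other array. The counts out of 21 and 30 take in every member, whatever its level, and the 9 of 14 only those past the filter. The filter kept 14 and 19 of them, of which 5 and 8 were under the filter level with TGF-beta2. Without the oxozeaenol array, the mean of 3 and 9 of them would have been under that level, as would that of 1 of 14 adhesion genes and 2 of 6 epithelial regulators. The 9 of 14, the counts of higher members and the medians of these 4 lists are therefore no measure of support. The lists were written with earlier results of these arrays known.

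Krt13, the suprabasal keratin of oral epithelium, read 28.0 in untreated cells, 24.3 with TGF-beta2 alone, 55.8 with SB431542 and 2023 with oxozeaenol. Krt6b, a keratin of oral and wounded epithelium, read 59.7 in untreated cells, 56.0 with TGF-beta2 alone, 88.9 with SB431542 and 3060 with oxozeaenol. Krt6a, its near copy, read 821 in untreated cells, 953 with TGF-beta2 alone, 1049 with SB431542 and 4877 with oxozeaenol. Krt5 had signals of 195, 233, 258 and 1383 and its partner in the basal layer, Krt14, signals of 141, 295, 275 and 2218. Only Krt6a, Krt5 and Krt14 of these 5 were well above the filter level on the other 3 arrays. Krt8, a keratin of simple epithelia, was within 2-fold, with signals of 563, 458, 465 and 684. Keratin genes are alike in sequence, so that the readings of near copies such as Krt6a and Krt6b are uncertain as to gene. The Krt14 probe set is of a kind that can match several transcripts. Another Krt14 probe set, not of that kind, had signals of 205, 208, 188 and 1206, a difference of 2.42.

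Among suprabasal genes, Krtdap, a secreted protein of differentiating keratinocytes, read 12.1 in untreated cells, 5.57 with TGF-beta2 alone, 50.4 with SB431542 and 951 with oxozeaenol. Sprr3, a small proline-rich protein of the envelope, had signals of 39.1, 30.5, 67.3 and 959, and its relative Sprr1a differed by 3.29. Dmkn, dermokine, had signals of 31.3, 44.5, 41.1 and 1019. Lor, loricrin, had signals of 131, 119.6, 155 and 496. Ivl, involucrin, was lowest on the oxozeaenol array, with signals of 7.27, 40.3, 13.4 and 4.62, all under the filter level. A pair of late differentiation genes, Lce3a and Asprv1, were higher with oxozeaenol and lower with SB431542, each relative to the same TGF-beta2 array. Lce3a, a late envelope protein, had signals of 33.1, 65.1, 12.9 and 597. Asprv1, a skin protease, had signals of 5.96, 87.1, 15.8 and 557. The SB431542 signals of the pair were under the filter level, as was that of Lce3a with TGF-beta2 alone.

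Of 14 measured adhesion and desmosome genes 3 were higher, and of 6 epithelial transcription factors and splicing regulators 1, Sox2, which was under the filter level on the other 3 arrays. Dsp, desmoplakin, read 147 in untreated cells, 148 with TGF-beta2 alone, 139 with SB431542 and 1012 with oxozeaenol. Dsc2, a desmosomal cadherin, had signals of 70.6, 66.2, 44.3 and 458. Cdh1, E-cadherin, a marker of all epithelia, read 257 in untreated cells, 229.8 with TGF-beta2 alone, 191 with SB431542 and 463 with oxozeaenol, just within 2-fold. Epcam, another surface marker of epithelia, had signals of 369, 232, 331 and 366, no higher with oxozeaenol than untreated. Trp63, the master regulator of stratified epithelium, was under the filter, with signals of 26.1, 37.2, 52.0 and 128. Sox2, a factor of oral epithelium and stem cells, had signals of 36.5, 36.7, 60.8 and 247. The summed signal of the 20 adhesion genes on the array was 5363 in untreated cells, 5560 with TGF-beta2, 4950 with SB431542 and 7987 with oxozeaenol. That of the 21 keratins was 2947, 3102, 3350 and 18473. The number of keratins at or above the filter level was 11, 9, 12 and 19 on the 4 arrays. The part of epithelial cells in the culture in these values was not tested, and the mesenchyme markers stood at a summed signal of 115630 with TGF-beta2 and 111711 with oxozeaenol. With the 4 epithelial lists left out, 187 genes were higher and 255 lower, but the lists do not hold every epithelial gene.

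**Figure D5:**
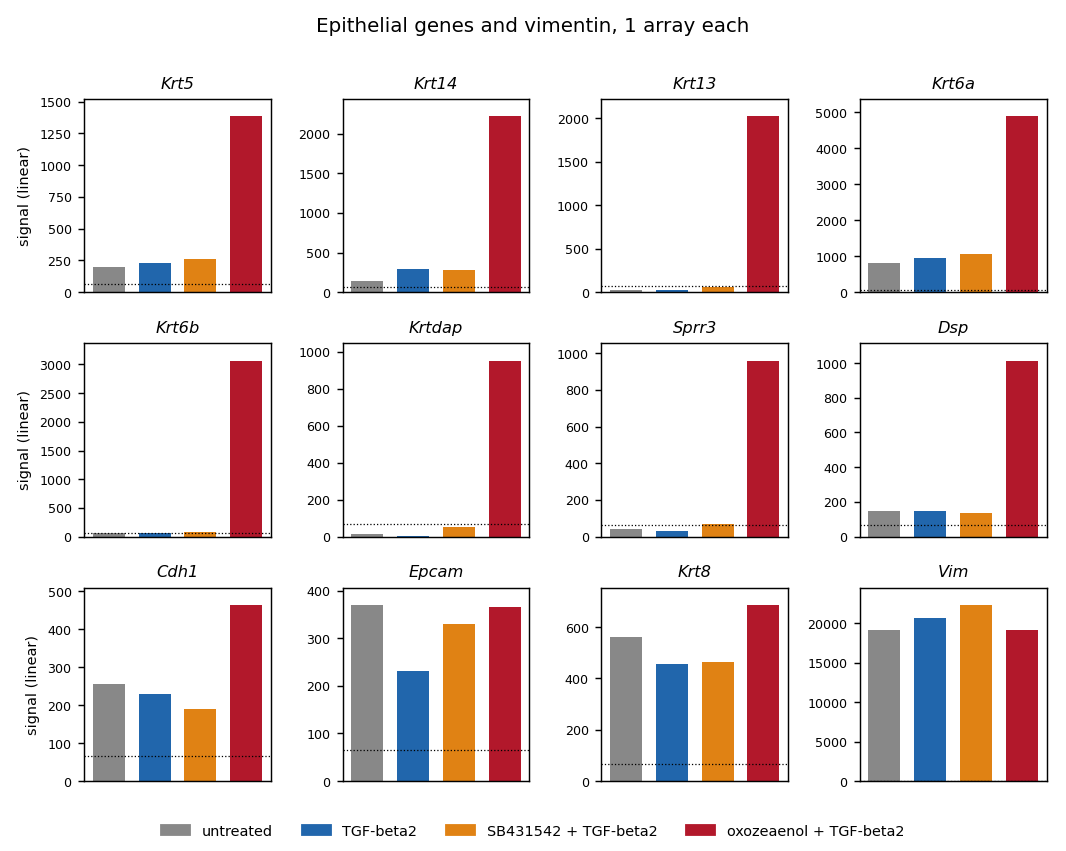
Signal on a linear scale (y axis, a separate scale for each gene, starting at 0) of 11 epithelial genes and of Vim, a mesenchymal filament gene, on the 4 arrays, 1 bar per array, with a dotted line at the filter level of 66.1. The oxozeaenol bar is the highest for 10 of the 11, the exception being Epcam, while Vim shows like bars.

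The promoters of Krtdap, Sprr1a and Krt13 are shown because AP-1 sites occur in them, as in other genes of the epithelial lists. They are RefSeq sequences on GRCm38.p6, with capitals as above. In Krtdap (chr7:30787655-30787904, plus strand) the site begins 81 bases before the start. In Sprr1a (chr3:92485882-92486131, minus strand) sites begin 146 and 116 bases before it, and in Krt13 (chr11:100120578-100120827, minus strand) 183 and 34 bases before it.
Krtdap: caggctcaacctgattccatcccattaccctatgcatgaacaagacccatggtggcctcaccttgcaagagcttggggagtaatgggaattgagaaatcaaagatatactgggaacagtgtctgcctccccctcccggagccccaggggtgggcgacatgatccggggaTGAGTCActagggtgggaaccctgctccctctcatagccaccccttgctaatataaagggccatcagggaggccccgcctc
Sprr1a: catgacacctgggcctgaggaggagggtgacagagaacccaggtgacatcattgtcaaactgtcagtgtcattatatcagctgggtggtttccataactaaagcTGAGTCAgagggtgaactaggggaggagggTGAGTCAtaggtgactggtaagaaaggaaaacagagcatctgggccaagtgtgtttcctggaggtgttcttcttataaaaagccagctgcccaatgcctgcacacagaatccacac
Krt13: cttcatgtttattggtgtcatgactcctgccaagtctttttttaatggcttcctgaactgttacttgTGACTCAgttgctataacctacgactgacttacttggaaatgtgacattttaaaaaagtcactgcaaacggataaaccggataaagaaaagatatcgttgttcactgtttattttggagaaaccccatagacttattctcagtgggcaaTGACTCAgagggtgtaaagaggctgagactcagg
The letters TGACTCA, read on either strand, were found in 7 of the 16 epithelial genes that were higher and had a promoter in the table (43.8%). Those 7 were Dmkn, Krt13, Krtdap, Lor, Sbsn, Sprr1a and Sprr2d. Of the other higher genes 6 of 149 held them (4.03%), against 4.78% of measured genes and 5.20% of all windows in the table. Some of the 16, such as Krt13 and Krtdap, passed the filter only through the oxozeaenol array. The share in epithelial genes that were not higher was not counted. Whether the 43.8% goes with being higher or with being epithelial was therefore not tested. The same letters were in 0 of the 11 immediate early genes that were lower and had a promoter in the table.

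Set against the SB431542 culture, which shares the TGF-beta2 array as its comparison, the counts for oxozeaenol were larger. SB431542 and TGF-beta2 left 139 genes 2-fold or more below TGF-beta2 alone (1.18%) and 72 above (0.613%). For Dusp6 the difference from TGF-beta2 alone was -0.40 with SB431542 and -5.24 with oxozeaenol, for Egr1 -0.98 and -5.73, and for Ccl2 0.36 and -2.51. For Smad7 the same values were -0.91 and -1.03, for Ptgs2 -1.24 and -1.16, and for Has2 -2.80 and -3.11. For Junb they were -1.89 and -1.60, for Hmga2 0.02 and -2.13, and for Krt13 0.75 and 5.47. With 1 array each, whether the inhibitors differ at any gene was not tested.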

How the data were processed

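Total RNA from 4 cultures was read on Affymetrix 3′ arrays, 1 array per culture and 500 ng of RNA each per the labels' protocols. The authors deposited intensities on a linear scale, and the submitters' processing notes name GCOS, the Affymetrix software, without a version, algorithm or setting. On each array the trimmed mean, without the lowest and highest 2%, was 500.0, and such scaling takes the average transcript as equally abundant in every culture. From these deposited intensities, control probe sets (64 of 45101) and probe sets with several gene symbols (932) or none (9160) in the platform annotation were left out. Signals were taken as log2(signal + 21.7), with the 25th percentile of the deposited values as pseudocount. The filter kept probe sets whose mean log2 value over the 4 arrays reached the median of non-control probe sets (a signal of 66.1), and the brightest kept probe set stood for its gene. A gene counted as higher or lower from a 2-fold difference, with no test and no p-value.

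The members, the 50 gene lists and the rule for named genes were chosen with earlier results of these data known. Named genes were the 40 largest differences each way whose probe sets had 1 direction, the 20 largest each way bright on both arrays, list members past 2-fold, up to 5 bright list members within it, level controls, genes opposite with the 2 inhibitors, and genes at the edge of the rule. Cdh1, Ddit3, Hspa1b, Il33, Ivl, Sox10 and Trp63, and the genes in the closing section that are in no list, were named after their values were seen. Symbols were matched to RefSeq for 34741 of 34945 probe sets, and promoters are those of RefSeq on GRCm38.p6. Python 3.11.15, numpy 2.4.6, pandas 2.3.3 and statsmodels 0.14.6 were used. The 12 alternatives changed the pseudocount, the filter, the normalization, the probe set that stands for a gene and the genes used.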

Additional observations from a re-analysis of the deposited data

Results flagged for a closer look

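Probe sets to which the platform annotation gives no gene, or several, entered no comparison, and some of them stood apart on the oxozeaenol array. Of 1886 probe sets with no listed gene past the filter, 18 lay 2-fold or more above the TGF-beta2 array (0.954%) and 34 lower (1.8%), and 3 were at least 2-fold above and 3 at least 2-fold below all 3 other arrays. Of 569 with several genes, 7 were higher (1.23%) and 3 lower (0.527%), and 3 were above and 1 below all 3 other arrays, with a largest difference of 5.49 on the log2 scale. They are unnamed here.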

How the results depend on the processing

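With 1 array per culture no replicate could be left out, and only the choices of processing could be varied. The count of 214 higher genes became 141 with the median of all values as pseudocount, 588 with no filter and 64 with a filter at the 75th percentile, and the count of 255 lower genes became 511 and 149 under those 2 filters. Under the other alternatives the counts stayed within 1.5 times, from 157 to 265 higher and from 189 to 294 lower. Of 420 named genes, 4 changed sign, each when the probe set with the smallest difference stood for the gene. They were Arntl (0.10), Cx3cl1 (0.049), Jag1 (0.25) and Rspo2 (-0.058), and the cause was not tested. Surf6, given below and not among the 420, would also change sign (0.72). Quantile normalization shared 183 higher and 254 lower genes with the reported setting. No paired analysis was possible because each group holds 1 array and the labels give no replicate numbers. Low signals limit the higher side more, since 57 of the 214 higher genes were under the filter level with TGF-beta2, against 44 of the 255 lower genes under it with oxozeaenol.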

Other observations

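Genes in none of the lists supplied 164 of the higher and 168 of the lower genes, and a few groups among them, put together after their values were seen, are given as values only. Some factors of ribosome assembly were among the lower genes. Rrs1, a factor of large subunit assembly, read 6468 in untreated cells, 6821 with TGF-beta2 alone, 5778 with SB431542 and 3298 with oxozeaenol. Tsr1, of small subunit assembly, read 4068 in untreated cells, 3845 with TGF-beta2 alone, 3502 with SB431542 and 1819 with oxozeaenol. Grwd1, also a nucleolar factor, had signals of 1562, 1431, 1306 and 609 in the order untreated, TGF-beta2, SB431542 and oxozeaenol. Ppan had signals of 635, 699, 639 and 285. Surf6 differed from the TGF-beta2 array by -1.18, but another of its probe sets differed by 0.72. Each of these 5, picked from the lower genes with their values known, was lowest with oxozeaenol in its brightest probe set.

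Some receptors and a sensor of innate immune cells were among the lower genes, while others, such as Csf1r, were within 2-fold. Ccr1, a chemokine receptor, read 1823 in untreated cells, 1639 with TGF-beta2 alone, 1407 with SB431542 and 324 with oxozeaenol. Tlr2, a Toll-like receptor, read 1014 in untreated cells, 1645 with TGF-beta2 alone, 989 with SB431542 and 606 with oxozeaenol. C5ar1, the receptor of complement C5a, had signals of 534, 513, 420.2 and 179, but another of its probe sets differed by -0.51. Nlrp3, an inflammasome sensor, had signals of 233, 249.5, 306 and 64.8. Trem1, a receptor of myeloid cells, differed by -1.39, and P2ry6, a nucleotide receptor, by -1.40. In all 6, picked from the lower genes with their values known, the oxozeaenol array was the lowest of 4. The part of macrophages in these values was not tested.

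On the higher side, Bcl2l11, which encodes the BH3-only protein Bim, read 535 in untreated cells, 573 with TGF-beta2 alone, 547 with SB431542 and 1412 with oxozeaenol. Xpo1, the nuclear export receptor, read 3387 in untreated cells, 2898 with TGF-beta2 alone, 3492 with SB431542 and 6687 with oxozeaenol. Lgr4, a receptor for R-spondins, had signals of 1169, 627, 912 and 2127. Pdcd4, an inhibitor of translation, had signals of 454, 386, 609 and 936. Ptx3, a pentraxin of innate immunity, had signals of 8516, 4833, 9555 and 10512.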
